A study of Mus musculus with 9 samples.

Results

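The comparison described here is the one in which only ultrasound was added: cells of the mouse macrophage-like line RAW264.7, of wild type genotype by the labels, on a membrane labelled BMC with low-intensity pulsed ultrasound (BMC+LIPUS), against the same cells on the same membrane without it (BMC). It uses 6 of the 9 libraries of the series, 3 of BMC+LIPUS and 3 of BMC. The other 3 libraries are a blank control with neither membrane nor ultrasound. They entered the fit to help estimate the spread and are shown beside the results. By its title the series is about macrophage polarization by ultrasound and piezoelectric membranes. All groups share the αMEM medium with fetal bovine serum. The labels do not say what BMC stands for, what the dose or duration of ultrasound was, or whether a group's libraries are of 3 different cultures. The spread behind the p-values is that of these libraries and may be technical. No group had ultrasound without the membrane, so an effect of ultrasound that needs the membrane and one that does not cannot be told apart.

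A piezoelectric material makes electric charge when it is deformed, and ultrasound deforms it. Macrophages sense force through mechanically gated channels and integrins. The calcium that enters binds calmodulin and switches on the phosphatase calcineurin, which moves NFAT transcription factors to the nucleus. Inflammatory activation runs mainly through NF-kB and gives cytokines, chemokines and markers often called M1, while repair-type activation gives markers called M2. Activated macrophages also commonly leave the cell cycle, with less of the machinery of DNA synthesis.

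Between 12675500 and 15279300 counts on named genes were in a BMC+LIPUS library, between 12831400 and 14682500 in a BMC library and between 13691900 and 16574500 in a control library, each rounded to 6 digits. Values per gene are read counts and FPKM (fragments per kilobase of transcript, scaled to library size). The macrophage markers checked (Csf1r, Adgre1, Cd68, Lyz2, Itgam, Spi1, Ptprc, Cd14 and Aif1) were all above the filter and summed to 7421 to 7668 FPKM in BMC+LIPUS and 7231 to 7983 FPKM in BMC, most of it Lyz2. All 4 epithelial markers had 0 counts in the 6 libraries, as did 5 of 7 fibroblast and stromal, 3 of 5 T cell, 2 of 3 B cell, 3 of 5 neutrophil and 1 of 4 endothelial markers. The first principal component over all 9 libraries held 52.8% of the variance. On it BMC+LIPUS libraries stood at 14.5 to 26.7, BMC libraries at 6.16 to 17.96 and controls at -35.4 to -31.7. BMC+LIPUS and BMC thus overlapped on this component. Over the 6 compared libraries alone, the groups also overlapped on the first component (29.9%). They did not on the second (23.5%), where BMC+LIPUS libraries stood at -1.559 or lower and BMC libraries at 5.334 or higher. Pairs of 1 BMC+LIPUS and 1 BMC library differed by 4.08 to 15.6 times the sampling variance, and pairs within either group by 4.35 to 9.81 times.

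For a few of the genes called below, the DNA around the transcription start is shown here, to set the letters near their starts beside their levels. It was searched for motifs of factors that act in calcium signalling (NFAT), cyclic AMP signalling (CRE), inflammation (NF-kB), early responses (AP-1) and force-linked transcription (TEAD and serum response factor). The windows are those of RefSeq on build GRCm38.p6, 250 bases before the gene start and 50 after, written 5′ to 3′ on the strand of the gene, for the called genes with the smallest p that have an entry. Capitals mark matches, on either strand, to NFAT (GGAAAA), NF-kB, AP-1 (TGANTCA), the cyclic AMP response element CRE (TGACGTCA), TEAD (GGAATG) and the CArG box of serum response factor. Rcan1 has a window at each of 2 starts, and window 2 is the downstream one. Window 1 lies at chr16:92466120-92466419, window 2 at chr16:92400029-92400328 (both minus strand), Cxcl2 at chr5:90903649-90903948 (plus strand), S1pr2 at chr9:20976744-20977043 (minus strand) and Cep250 at chr2:155956308-155956607 (plus strand).
Rcan1, window 1: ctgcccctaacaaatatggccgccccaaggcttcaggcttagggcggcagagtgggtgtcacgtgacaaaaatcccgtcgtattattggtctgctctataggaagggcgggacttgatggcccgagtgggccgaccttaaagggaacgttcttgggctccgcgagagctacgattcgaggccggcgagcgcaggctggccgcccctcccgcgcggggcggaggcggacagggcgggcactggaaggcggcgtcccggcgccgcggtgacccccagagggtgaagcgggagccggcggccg
Rcan1, window 2: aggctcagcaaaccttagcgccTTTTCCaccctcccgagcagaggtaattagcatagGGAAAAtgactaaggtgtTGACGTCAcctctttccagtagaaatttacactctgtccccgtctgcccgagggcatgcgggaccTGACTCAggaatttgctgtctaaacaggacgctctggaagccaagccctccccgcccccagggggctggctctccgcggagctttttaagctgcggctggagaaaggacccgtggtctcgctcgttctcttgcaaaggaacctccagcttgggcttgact
Cxcl2: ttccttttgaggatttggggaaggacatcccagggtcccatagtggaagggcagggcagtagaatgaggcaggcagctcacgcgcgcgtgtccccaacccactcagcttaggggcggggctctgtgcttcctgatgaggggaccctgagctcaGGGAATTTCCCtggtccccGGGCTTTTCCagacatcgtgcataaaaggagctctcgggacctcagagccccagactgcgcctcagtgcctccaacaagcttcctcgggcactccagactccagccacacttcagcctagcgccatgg
S1pr2: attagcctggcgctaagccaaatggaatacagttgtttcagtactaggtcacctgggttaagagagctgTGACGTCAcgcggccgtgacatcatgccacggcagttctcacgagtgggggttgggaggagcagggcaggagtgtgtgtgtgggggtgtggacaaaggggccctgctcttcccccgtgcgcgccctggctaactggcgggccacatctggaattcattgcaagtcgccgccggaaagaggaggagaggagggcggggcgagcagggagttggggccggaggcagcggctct
Cep250: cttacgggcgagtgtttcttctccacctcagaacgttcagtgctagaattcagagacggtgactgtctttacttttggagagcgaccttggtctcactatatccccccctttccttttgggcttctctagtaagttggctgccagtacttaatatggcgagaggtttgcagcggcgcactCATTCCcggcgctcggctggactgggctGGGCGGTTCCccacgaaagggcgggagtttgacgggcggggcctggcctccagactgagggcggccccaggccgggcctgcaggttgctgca

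Window 1 of Rcan1 held none of these motifs. Window 2 held NFAT letters at bases -228 and -193 from the gene start, CRE letters at -175 and AP-1 letters at -110, with no overlap. The Cxcl2 window held NF-kB letters read on both strands at -97 and -96 and again at -78, and the last match overlaps NFAT letters at -74. The S1pr2 window held CRE letters at -181, and the Cep250 window TEAD letters at -70 and NF-kB letters at -42. Over all 32851 windows of the same length, 23.4% held the NFAT letters, 5.56% NF-kB, 7.81% AP-1, 1.79% CRE, 14.7% TEAD and 1.63% the CArG box. These matches describe letters, not binding. The counts add up both starts of Rcan1, which therefore cannot be told apart.

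Adding ultrasound to the membrane moved few genes past the threshold, each of them by less than a doubling. Of 12030 genes tested, 13 were called (0.108%), 11 of them higher in BMC+LIPUS (0.0914%) and 2 lower (0.0166%), by edgeR's quasi-likelihood test with Benjamini-Hochberg adjusted p under 0.05. Counts called below are from this fit unless another setting is named. The 12 described here are Rcan1, Cxcl2, Plk3, Uvrag, Fyn, Abi3, Osgin2, Mmd, Cep250 and Malat1, which rose, and S1pr2 and Lhfpl2, which fell. The largest called change was 0.76 on the log2 scale. Over all tested genes the median log2 change was -0.0017, its median absolute size 0.0968 and its median standard error (SE) 0.0963, and the 95% interval of a gene's change reached 0.204 to either side at the median. At an adjusted p under 0.10, a threshold added after the data were seen, there were 54 genes (0.449%), 30 higher (0.249%) and 24 lower (0.2%). At unadjusted p under 0.05 there were 1384 genes (11.5%), 760 higher (6.32%) and 624 lower (5.19%). Counts of list members below are to be read beside these shares and those of the calls. The lists were chosen with earlier results of these data known. In 1919 genes (16%) the 3 BMC+LIPUS libraries did not overlap the 3 BMC libraries, 986 of them higher (8.2%) and 933 lower (7.76%).

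The number of calls rests on single libraries. With BMC+LIPUS replicate 1 left out, edgeR called 0 genes, with 1442 at unadjusted p under 0.05. Leaving out BMC+LIPUS replicate 2 or 3 gave 16 and 2 calls, and leaving out BMC replicate 1, 2 or 3 gave 3, 2 and 51 calls. All 13 genes kept their direction each time. Rcan1 was called in 15 of 18 other settings, Osgin2 in 13, Cxcl2 in 12, S1pr2, Cep250 and Mmd in 11 each, Fyn and Malat1 in 10, Uvrag and Plk3 in 9 of 18, Abi3 in 9 of 17 and Lhfpl2 in 8 of 18. DESeq2 called all 13 among 73 genes, while limma on log2(FPKM + 1) called 0, with 1302 genes at unadjusted p under 0.05.

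**Figure D1:**
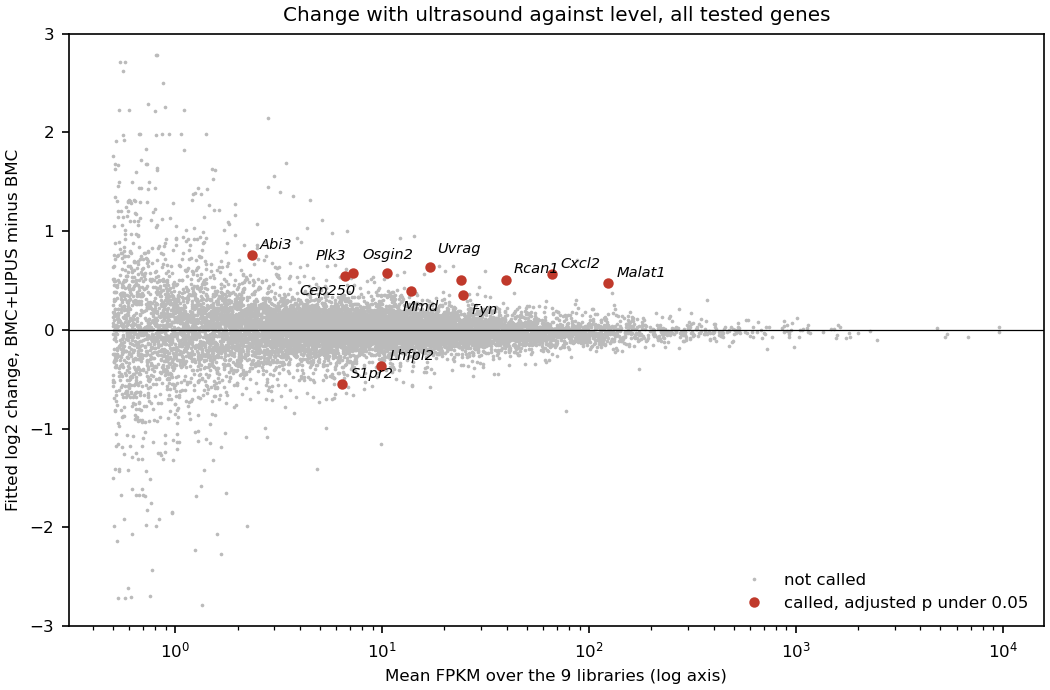
Fitted log2 change between BMC+LIPUS and BMC (vertical axis) against mean FPKM over the 9 libraries (log axis) for the tested genes, with called genes in red; 16 genes beyond 3 on the log2 scale are not drawn. The called genes lie between 0.35 and 0.76 above zero or between 0.37 and 0.55 below it, and the genes with larger fitted changes are mostly of low level and not called.

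Rcan1, a calcineurin inhibitor that calcineurin signalling itself induces, had the smallest p. Its level was 65.85, 62.11 and 58.44 FPKM in BMC+LIPUS, 45.01, 44.16 and 42.45 FPKM in BMC, and 11.83, 12.5 and 13.17 FPKM in control. Every BMC+LIPUS library was above every BMC library, and every BMC library above every control. Rcan1 rose 1.42-fold with ultrasound (log2 change 0.51, SE 0.06, edgeR adjusted p = 0.00392). BMC against control, which shares the BMC libraries with this comparison, gave a log2 change of 1.87 for it. The call was lost without BMC+LIPUS replicate 1 (log2 change 0.47, edgeR adjusted p = 0.0624) and held without each of the other 5 libraries.

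The rest of the calcineurin and NFAT list did not share one direction. Of its 13 tested genes, 2 were higher and 2 lower at unadjusted p under 0.05, and the median log2 change was 0.06. Nfatc1, the NFAT factor that amplifies its own transcription in osteoclast precursors, had 21.4, 19.2 and 24.6 FPKM in BMC+LIPUS, and 14.9, 19.0 and 18.4 FPKM in BMC (log2 change 0.33, edgeR adjusted p = 0.221). The lowest BMC+LIPUS and the highest BMC library of Nfatc1 had nearly the same level. The 2 lower genes of the list, Ppp3cc and Ppp3cb, encode catalytic subunits of calcineurin. Ppp3cc averaged 5.50 ± 0.95 FPKM in BMC+LIPUS and 7.2 ± 1.2 FPKM in BMC, and Ppp3cb 15.6 ± 1.2 and 17.99 ± 0.68 FPKM in the same groups (SD, n = 3 each, edgeR adjusted p = 0.302 and 0.309). Among 26 genes of calcium stores and calmodulin, 3 were higher and 3 lower at unadjusted p under 0.05, and none was called by edgeR or DESeq2. Atp2a3, a calcium pump of the endoplasmic reticulum, averaged 12.95 ± 0.23 FPKM in BMC+LIPUS and 10.9 ± 0.87 FPKM in BMC (log2 change 0.26, edgeR adjusted p = 0.251).

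**Figure D2:**
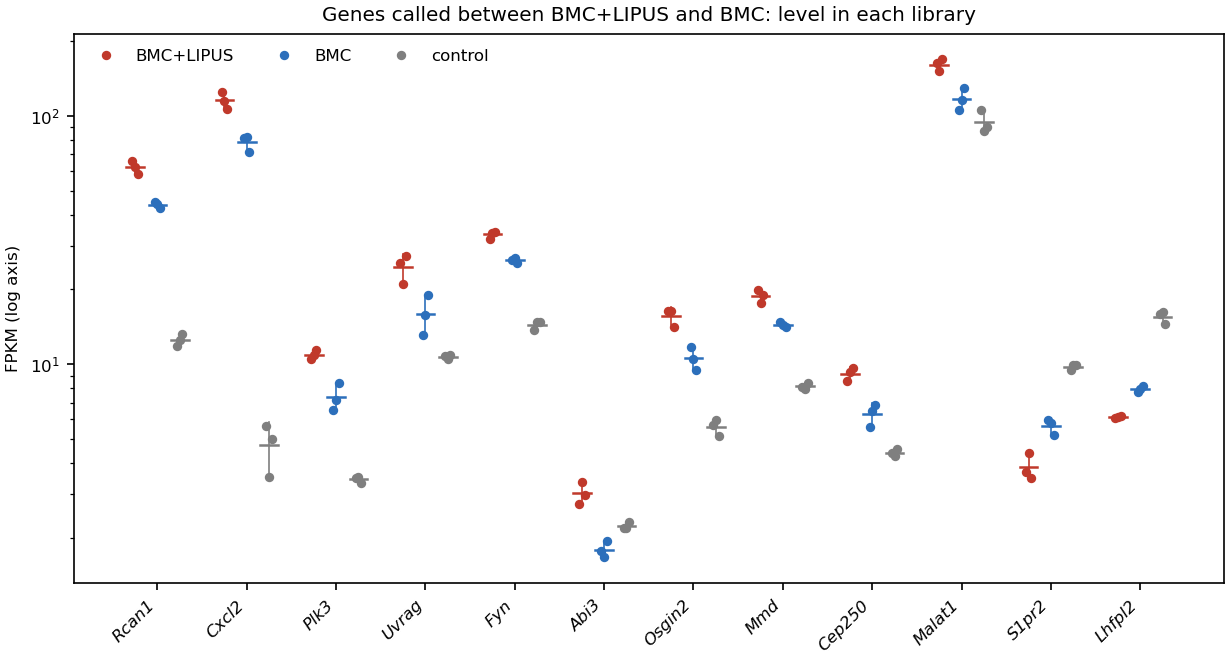
FPKM (log axis) of 12 called genes in each library of BMC+LIPUS, BMC and control; points are libraries, horizontal lines means and vertical lines 1 SD (n = 3). For all 12 genes the BMC+LIPUS and BMC points do not overlap.

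Cxcl2, a chemokine that draws neutrophils, rose 1.48-fold (log2 change 0.57, SE 0.09, edgeR adjusted p = 0.0341). It stood at 125.15, 115.26 and 106.91 FPKM in BMC+LIPUS, 81.14, 82.36 and 71.8 FPKM in BMC, and 5.65, 3.5 and 5.01 FPKM in control. The lowest BMC+LIPUS library was above the highest BMC library, and the controls were far below both. The other chemokines did not move with it as a group: of 9 tested, 2 were higher at unadjusted p under 0.05, none was lower, and the median log2 change was 0.0013. Ccl3, an inflammatory chemokine more abundant than Cxcl2, had 460, 363 and 394 FPKM in BMC+LIPUS and 312, 365 and 376 FPKM in BMC, which overlap (log2 change 0.21, edgeR adjusted p = 0.407). Mean log2 CPM (library-scaled counts) of the chemokine list was 5.60, 5.30 and 5.30 in BMC+LIPUS, within reach of 5.35, 5.49 and 5.24 in BMC.

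The usual polarization markers were not called by edgeR, and Tnf, Il1b and Cd86 were not called in any other setting in which they were tested. Tnf, the inflammatory cytokine, had 125, 112 and 122 FPKM in BMC+LIPUS, 98.9, 110 and 118 FPKM in BMC, and 48.3, 43.4 and 55.2 FPKM in control (log2 change with ultrasound 0.15, 95% interval -0.04 to 0.33, edgeR adjusted p = 0.556). Il1b, another inflammatory cytokine, had 26, 31 and 26 counts in BMC+LIPUS, 11, 18 and 5 counts in BMC, and 16, 15 and 16 counts in control. Its groups did not overlap, but the low counts left a wide interval (log2 change 1.29, 95% interval 0.53 to 2.06, edgeR adjusted p = 0.182). Cd86, a costimulatory ligand, had 1.32, 1.38 and 1.33 FPKM in BMC+LIPUS and 0.92, 1.38 and 0.70 FPKM in BMC (log2 change 0.42, 95% interval -0.12 to 0.97, edgeR adjusted p = 0.556). The remaining panel genes were below the filter. Nos2, the inducible nitric oxide synthase, had 1 count over the BMC+LIPUS libraries and 2 over the BMC libraries, and the M2 genes Arg1, Mrc1 and Il10 had 10, 22 and 7 counts in BMC+LIPUS and 6, 27 and 3 counts in BMC. Il6 and Cd163 had 0 counts in every library, which allows up to 0.0720 CPM over the BMC+LIPUS libraries and 0.0723 CPM over the BMC libraries, by counting error alone.

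Of the M1 list, 12 of 22 genes passed the filter. At unadjusted p under 0.05, 3 were higher (Ptgs2, Cd80 and Il1b) and 2 lower (Irf1 and Socs3). None was called by edgeR, and the median log2 change was -0.09, with 5 genes positive and 7 negative. In 3 genes every BMC+LIPUS library was above every BMC library, and in 0 below. Mean log2 CPM of the list leaned the other way from the median. It was 4.716, 4.676 and 4.602 in BMC+LIPUS and 4.542, 4.644 and 4.356 in BMC, which overlap. DESeq2, robust estimation, the replicate block and the length offset described below each called 1 M1 gene, and no filter and the osmotic covariate 2 each, all higher; Ptgs2 was called in 6 of 17 other settings. Ptgs2, the inducible prostaglandin synthase, had 6.25, 6.18 and 5.33 FPKM in BMC+LIPUS, 4.09, 4.53 and 3.55 FPKM in BMC, and 0.76, 0.84 and 0.80 FPKM in control (log2 change 0.55, edgeR adjusted p = 0.0542). Cd80, the partner ligand of Cd86, had 7.24, 8.73 and 6.27 FPKM in BMC+LIPUS and 5.60, 5.00 and 4.88 FPKM in BMC (log2 change 0.53, edgeR adjusted p = 0.177). For both genes all BMC+LIPUS libraries stood above all BMC libraries. Irf1, an interferon-induced transcription factor, averaged 2.61 ± 0.46 FPKM in BMC+LIPUS and 3.36 ± 0.54 FPKM in BMC (SD, n = 3 each, log2 change -0.35, edgeR adjusted p = 0.407). Of 15 interferon-stimulated genes 0 were called or at unadjusted p under 0.05 by edgeR, DESeq2 called 0, and the median log2 change was -0.07. Of the M2 list, 12 of 25 genes passed the filter, 3 higher and 2 lower at unadjusted p under 0.05 (median log2 change 0.08). Kdm6b, a histone demethylase, had 9.84, 11.7 and 9.64 FPKM in BMC+LIPUS and 7.62, 9.08 and 8.14 FPKM in BMC (log2 change 0.33, edgeR adjusted p = 0.179), while Klf4, a Kruppel-like factor of alternative activation, had 1.80, 2.97 and 1.74 FPKM in BMC+LIPUS and 4.31, 3.57 and 2.63 FPKM in BMC (log2 change -0.70, edgeR adjusted p = 0.193). No M2 gene was called by edgeR in the main fit or by DESeq2. With no filter 2 were called higher and 2 lower, and with the osmotic covariate 3 higher. The sign of the M2 median turned in 3 of 18 other settings.

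Cytokines and growth factors outside the chemokines leaned upward. Of 11 tested, 4 were higher at unadjusted p under 0.05 and 1 lower, none was called by edgeR or DESeq2 (with no filter, 1 was called lower), and the median log2 change was 0.21. The shares were 36.4% higher and 9.09% lower, against 6.32% and 5.19% of all tested genes. The higher ones were Il1b, Osm, Il1rn and Vegfa, and the lower one Igf1. Osm, the cytokine oncostatin M, averaged 3.21 ± 0.21 FPKM in BMC+LIPUS and 2.32 ± 0.48 FPKM in BMC, and Igf1, a trophic factor, 20.3 ± 3.4 and 25.6 ± 5.2 FPKM in the same groups (SD, n = 3 each). Mean log2 CPM of the list was 4.53, 4.57 and 4.47 in BMC+LIPUS, 4.26, 4.32 and 4.12 in BMC and 3.80, 3.71 and 3.77 in control. The number higher fell to 1 without BMC+LIPUS replicate 1 and to 2 without BMC replicate 1 or 2. In the NF-kB list 3 of 24 genes were higher at unadjusted p under 0.05 (Nfkbiz, Rel and Nfkb2), none lower and none called by edgeR or DESeq2, with a median log2 change of 0.04. With the osmotic covariate described below, edgeR called 1 of the 24 higher. Nfkbiz, a nuclear cofactor of NF-kB, had 8.77, 7.87 and 8.69 FPKM in BMC+LIPUS and 6.38, 7.31 and 7.28 FPKM in BMC (log2 change 0.28, edgeR adjusted p = 0.224).

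Plk3, a stress-induced polo-like kinase counted among the immediate early genes, rose 1.49-fold (log2 change 0.58, SE 0.10, edgeR adjusted p = 0.0447). It had 10.46, 10.9 and 11.39 FPKM in BMC+LIPUS, 6.55, 7.15 and 8.37 FPKM in BMC, and 3.48, 3.52 and 3.32 FPKM in control. Of 31 immediate early and MAPK feedback genes, 9 were higher at unadjusted p under 0.05, 2 lower, and 1 called, with a median log2 change of 0.11. The shares were 29.0% higher and 6.45% lower, against 6.32% and 5.19% of all tested genes, of which 0.0914% were called higher. Nr4a2, an orphan nuclear receptor induced early by many stimuli, had 2.08, 2.29 and 2.17 FPKM in BMC+LIPUS, 1.30, 1.17 and 0.81 FPKM in BMC, and 0.86, 0.62 and 0.90 FPKM in control. Its log2 change of 0.99 (SE 0.19, edgeR adjusted p = 0.0542) was larger than that of any called gene, on fewer reads. The other higher members were Fosl2, Dusp5, Nr4a1, Maff, Ier3, Fosl1 and Dusp2, and the lower ones Klf4 and Fos. Fos, the founding AP-1 subunit, averaged 15.1 ± 3.2 FPKM in BMC+LIPUS and 19.4 ± 4.5 FPKM in BMC (SD, n = 3 each, log2 change -0.36, edgeR adjusted p = 0.353), whereas its relatives Fosl1 and Fosl2 had log2 changes of 0.72 and 0.40 (edgeR adjusted p = 0.34 and 0.159). Thus members of the AP-1 family stood on both sides of zero.

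Fyn, a Src family kinase at focal adhesions and immune receptors, rose 1.28-fold (log2 change 0.35, SE 0.06, edgeR adjusted p = 0.04). Its levels were 32.01, 33.89 and 34.23 FPKM in BMC+LIPUS, 26.34, 26.87 and 25.57 FPKM in BMC, and 13.67, 14.77 and 14.83 FPKM in control. Abi3, an adaptor of the WAVE complex that nucleates branched actin, rose 1.69-fold (log2 change 0.76, SE 0.13, edgeR adjusted p = 0.0447), at 2.72, 3.34 and 2.98 FPKM in BMC+LIPUS, 1.76, 1.67 and 1.93 FPKM in BMC, and 2.19, 2.19 and 2.32 FPKM in control. Among the called genes described that rose, Abi3 was the one whose BMC libraries lay below the controls; BMC against control gave it a log2 change of -0.26 (edgeR adjusted p = 0.15). Of 25 integrin and focal adhesion genes, 6 were higher at unadjusted p under 0.05, none lower and 2 called, with a median log2 change of 0.08. The share higher was 24%, against 6.32% of all tested genes, of which 0.0914% were called higher. Itgav, the integrin alpha V chain, averaged 17.4 ± 1.4 FPKM in BMC+LIPUS and 13.4 ± 0.73 FPKM in BMC (SD, n = 3 each, log2 change 0.38, edgeR adjusted p = 0.0542). Ptk2, Tln1 and Itgal, which encode focal adhesion kinase, talin and an integrin chain of leukocytes, had log2 changes of 0.17 to 0.21. Of 21 serum response factor and actin genes, 2 were higher at unadjusted p under 0.05 and none lower. Mrtfa, the actin-sensing cofactor of serum response factor, had 7.15, 7.06 and 7.71 FPKM in BMC+LIPUS, 5.99, 6.29 and 6.11 FPKM in BMC, and 7.69, 7.79 and 8.16 FPKM in control (log2 change 0.26, edgeR adjusted p = 0.185). Of the YAP and TAZ targets, which report on stretched and spread cells in other cell types, only 4 of 16 passed the filter, and 0 of them were called or at unadjusted p under 0.05 by edgeR.

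None of the mechanosensitive channels was called by edgeR, but 40% of them were higher at unadjusted p under 0.05, against 6.32% of all tested genes. Of 15 tested, these were 6 (Tmem63b, Pkd2, Piezo1, Pkd1, Trpv2 and Tmem63a), 1 was lower (Kcnn4), and the median log2 change was 0.14. The list was chosen with earlier results of these data known, so the 40% is no independent support. Tmem63b, a stretch-activated cation channel, had 4.41, 4.55 and 4.73 FPKM in BMC+LIPUS, 3.18, 3.10 and 3.30 FPKM in BMC, and 2.66, 2.68 and 3.35 FPKM in control (log2 change 0.52, SE 0.11, edgeR adjusted p = 0.0678). Piezo1, the best known mechanically gated channel of macrophages, had 7.97, 9.51 and 9.21 FPKM in BMC+LIPUS and 7.50, 8.40 and 7.69 FPKM in BMC, which overlap (log2 change 0.18, 95% interval 0.03 to 0.34, edgeR adjusted p = 0.366). Pkd2, a polycystin channel, had 2.28, 2.29 and 2.33 FPKM in BMC+LIPUS and 1.72, 2.04 and 1.77 FPKM in BMC (log2 change 0.32, edgeR adjusted p = 0.196). Kcnn4, a calcium-activated potassium channel, averaged 10.0 ± 0.62 FPKM in BMC+LIPUS and 11.8 ± 1.1 FPKM in BMC (SD, n = 3 each, log2 change -0.23, edgeR adjusted p = 0.284). Mean log2 CPM of the list was 5.07, 5.17 and 5.18 in BMC+LIPUS, 4.93, 4.98 and 4.99 in BMC and 4.95, 4.93 and 4.96 in control. On this mean the BMC+LIPUS libraries stood above both other groups, which had like values. The median log2 change of BMC against control, which shares the BMC libraries, was also 0.14. By the median, then, the list stood higher in BMC than in control as well. The number higher was 3 without BMC+LIPUS replicate 2 or 3 or BMC replicate 1 or 3. DESeq2, no filter, robust estimation and the replicate block each called 1 channel higher and the osmotic covariate 2, and Tmem63b was called in 5 of 17 other settings.

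S1pr2, a sphingosine 1-phosphate receptor that restrains macrophage migration, fell to 3.68, 4.37 and 3.48 FPKM in BMC+LIPUS, against 5.97, 5.81 and 5.17 FPKM in BMC and 9.46, 9.95 and 9.91 FPKM in control. The fall was 1.47-fold (log2 change -0.55, SE 0.08, edgeR adjusted p = 0.0196). By group means BMC stood between the other 2 groups. Of 12 genes of sphingosine 1-phosphate receptors and enzymes, 1 was higher and 2 lower at unadjusted p under 0.05, and the median log2 change was 0.0017. Besides S1pr2 the lower one was Sgpp1, a phosphatase that breaks down the lipid, at 15.5, 14.7 and 15.1 FPKM in BMC+LIPUS and 17.04, 18.3 and 17.9 FPKM in BMC (log2 change -0.23, edgeR adjusted p = 0.2). Cers6, a ceramide synthase, averaged 29.9 ± 1.6 FPKM in BMC+LIPUS and 26.9 ± 0.62 FPKM in BMC (SD, n = 3 each, log2 change 0.16, edgeR adjusted p = 0.35).

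Uvrag, a partner of beclin in autophagy and endosome traffic, rose 1.55-fold (log2 change 0.64, SE 0.11, edgeR adjusted p = 0.0447). It had 25.45, 21.09 and 27.4 FPKM in BMC+LIPUS, 13.16, 15.74 and 18.95 FPKM in BMC, and 10.8, 10.47 and 10.89 FPKM in control. Both groups were more spread than the controls, with an SD of 3.23 FPKM in BMC+LIPUS, 2.90 in BMC and 0.22 in control. The controls helped estimate the spread behind its p. The lowest BMC+LIPUS library still stood above the highest BMC library. With only the 6 libraries compared, edgeR called 0 of the autophagy genes, and so not Uvrag. Of 31 autophagy genes, 8 were higher at unadjusted p under 0.05, none lower and 1 called, with a median log2 change of 0.06. The share higher was 25.8%, against 6.32% of all tested genes, of which 0.0914% were called higher. The median exon length of the list was 6.48 kb, and of all tested genes with 6 to 9 kb, 9.2% were higher. Besides Uvrag, the higher members were Wipi2, Atg2a, Atg9a, Sqstm1, Atg16l1, Atg2b and Nbr1. Sqstm1, the most abundant of them and a receptor for ubiquitin-tagged cargo, averaged 264 ± 12 FPKM in BMC+LIPUS and 237 ± 7.5 FPKM in BMC (SD, n = 3 each, log2 change 0.17, edgeR adjusted p = 0.322). The number higher was 5 without BMC+LIPUS replicate 2 or 3 and 3 without BMC replicate 1. In the lysosome list, 1 of 25 genes was higher at unadjusted p under 0.05, Neu1, a sialidase (log2 change 0.27, edgeR adjusted p = 0.177), and none lower.

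Osgin2, a relative of an oxidative stress induced growth inhibitor, rose 1.49-fold (log2 change 0.57, SE 0.08, edgeR adjusted p = 0.018), at 16.44, 16.36 and 14.13 FPKM in BMC+LIPUS, 11.7, 10.48 and 9.5 FPKM in BMC, and 5.7, 5.96 and 5.15 FPKM in control. It was listed with NRF2 and antioxidant genes, of which the others did not follow it: of 25 tested, 2 were higher and 3 lower at unadjusted p under 0.05, with a median log2 change of -0.02. Fth1, the ferritin heavy chain, averaged 854 ± 33 FPKM in BMC+LIPUS and 969 ± 56 FPKM in BMC, and Gpx1, a glutathione peroxidase, 27.8 ± 1.1 and 32.6 ± 2.9 FPKM in the same groups (SD, n = 3 each, edgeR adjusted p = 0.243 and 0.32).

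Cep250, a linker protein that holds the centrioles of a cell together, rose 1.46-fold (log2 change 0.54, SE 0.08, edgeR adjusted p = 0.0196). It had 8.55, 9.28 and 9.63 FPKM in BMC+LIPUS, 5.6, 6.47 and 6.86 FPKM in BMC, and 4.37, 4.27 and 4.55 FPKM in control. Of 27 centrosome genes only Cep250 and Plk3 were higher at unadjusted p under 0.05, both called, and 1 was lower. Mmd, a membrane protein found in maturing macrophages, rose 1.32-fold (log2 change 0.40, SE 0.07, edgeR adjusted p = 0.0447), at 19.98, 17.65 and 19.03 FPKM in BMC+LIPUS, 14.73, 14.37 and 14.13 FPKM in BMC, and 8.12, 7.91 and 8.42 FPKM in control. Lhfpl2, a membrane protein of the tetraspan type, fell 1.29-fold (log2 change -0.37, SE 0.07, edgeR adjusted p = 0.0447), with 6.05, 6.15 and 6.17 FPKM in BMC+LIPUS, 7.71, 7.92 and 8.17 FPKM in BMC, and 15.86, 16.23 and 14.47 FPKM in control. Its BMC+LIPUS libraries lay closest together of the 12 genes described.

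Malat1, an abundant nuclear noncoding RNA, rose 1.39-fold (log2 change 0.47, SE 0.09, edgeR adjusted p = 0.0447). It had 162.77, 151.47 and 169.16 FPKM in BMC+LIPUS, 105.54, 115.46 and 129.16 FPKM in BMC, and 105.77, 86.86 and 90.07 FPKM in control. The control and BMC libraries touch, with control replicate 1 above BMC replicate 1, while the BMC+LIPUS libraries stand apart. Of 21 noncoding RNAs, 4 were higher at unadjusted p under 0.05 and 1 lower, with a median log2 change of 0.12. Mir22hg, the host transcript of a microRNA, had 14.7, 13.9 and 12.4 FPKM in BMC+LIPUS and 11.7, 9.73 and 7.85 FPKM in BMC (log2 change 0.49, edgeR adjusted p = 0.147). The lower one was Neat1, the scaffold of paraspeckles and a neighbour of Malat1 in the genome, at 11.1 ± 0.90 FPKM in BMC+LIPUS and 13.5 ± 1.1 FPKM in BMC (SD, n = 3 each, log2 change -0.28, edgeR adjusted p = 0.197). Polyadenylated RNA was sequenced, so the levels of Malat1 and Neat1 may also depend on how they were captured, which was not tested.

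Genes of DNA replication pointed down together, by small amounts. Of the 40 listed, all 40 passed the filter, 39 had a negative log2 change, 29 were lower at unadjusted p under 0.05 (72.5%, against 5.19% of all tested genes), 0 were higher, and in 20 every BMC+LIPUS library was below every BMC library (all tested genes, 7.76%). The list was chosen with earlier results of these data known, so these shares are no independent support. None of the 40 genes was called by edgeR with the settings used here. The calls moved with the settings: edgeR called 12 of them with no filter, 8 without BMC replicate 3, 5 with the replicate block, 5 with the osmotic covariate, 4 with robust estimation, 2 without BMC+LIPUS replicate 2 and 1 with the length offset, and DESeq2 called 9. All these calls were lower, and the remaining 10 settings gave 0. The median log2 change was -0.22, against -0.0017 for all tested genes. BMC against control, which shares the BMC libraries, gave the list a median log2 change of -0.97. Mean log2 CPM of the list was 5.53, 5.63 and 5.43 in BMC+LIPUS, 5.85, 5.80 and 5.69 in BMC, and 6.74, 6.81 and 6.79 in control. The BMC+LIPUS libraries lay below the BMC libraries, at a distance much smaller than that between BMC and control. The number lower was 18 without BMC+LIPUS replicate 3 and 19 without BMC replicate 1, and 20 to 32 in the other settings, while the median log2 change stayed between -0.28 and -0.16. In bulk RNA, fewer cells in S phase and less of this RNA per cell cannot be told apart.

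**Figure D3:**
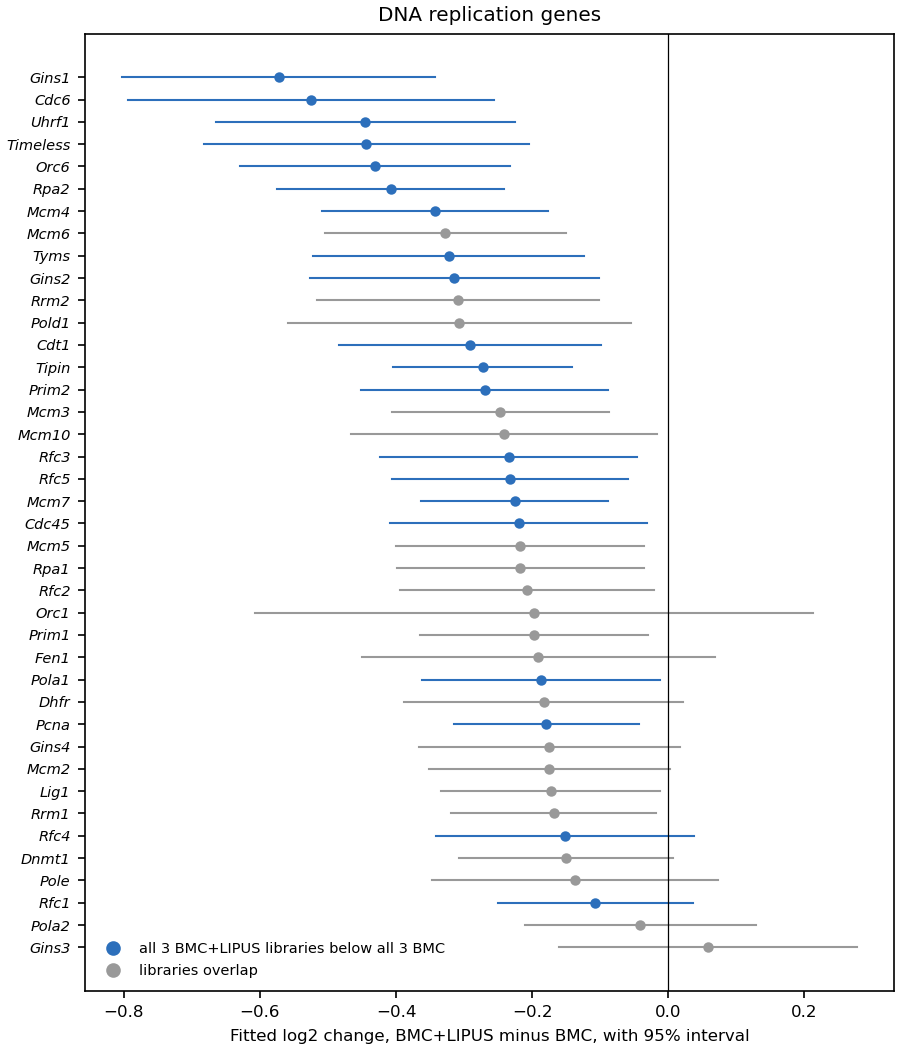
Fitted log2 change between BMC+LIPUS and BMC with 95% interval for the 40 DNA replication genes; blue marks the 20 genes in which the BMC+LIPUS and BMC libraries do not overlap. All but Gins3 lie left of zero.

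The smallest p in the list belonged to Gins1, a subunit of the GINS complex of the replicative helicase, with 8.11, 6.66 and 6.92 FPKM in BMC+LIPUS, 10.9, 11.8 and 9.76 FPKM in BMC, and 24.0, 24.5 and 23.3 FPKM in control (log2 change -0.57, SE 0.11, edgeR adjusted p = 0.0542). Next was Rpa2, of the single-strand DNA binding complex, with 13.2, 13.8 and 11.6 FPKM in BMC+LIPUS, 18.8, 16.8 and 15.6 FPKM in BMC, and 36.4, 35.2 and 34.6 FPKM in control (log2 change -0.41, SE 0.08, edgeR adjusted p = 0.0542). Both genes stood in the order BMC+LIPUS, BMC, control from low to high with no overlap. Orc6 of the origin recognition complex and Tipin of the fork protection complex had log2 changes of -0.43 and -0.27 (edgeR adjusted p = 0.0862 and 0.0998). The helicase subunits Mcm3 to Mcm7 had log2 changes of -0.34 to -0.22, the licensing factors Cdc6 and Cdt1 -0.53 and -0.29, and Uhrf1, which brings the maintenance methyltransferase to new DNA, -0.45. Pcna, the sliding clamp and the most abundant of the list, averaged 106 ± 6.6 FPKM in BMC+LIPUS, 121 ± 4.7 FPKM in BMC and 179 FPKM in control (log2 change -0.18, edgeR adjusted p = 0.306). Gins3 alone had a positive log2 change, 0.06.

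Genes of G2 and mitosis were given separately. Of 30 tested, 4 were lower at unadjusted p under 0.05 (Nuf2, Ccna2, Mad2l1 and Birc5), none higher and none called by edgeR, and the median log2 change was -0.04. DESeq2, no filter and the length offset each called 1 lower, and Nuf2 was called in 3 of 18 other settings. The difference between this list and the DNA replication list was not tested. Nuf2, a kinetochore protein, had 9.02, 9.57 and 9.10 FPKM in BMC+LIPUS, 11.7, 11.5 and 10.6 FPKM in BMC, and 15.4, 15.3 and 14.4 FPKM in control (log2 change -0.28, edgeR adjusted p = 0.0978). Ccna2, the cyclin of S phase and G2, had 33.2, 33.3 and 31.5 FPKM in BMC+LIPUS and 38.5, 39.96 and 35.1 FPKM in BMC (log2 change -0.21, edgeR adjusted p = 0.197). In both genes the groups did not overlap.

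**Figure D4:**
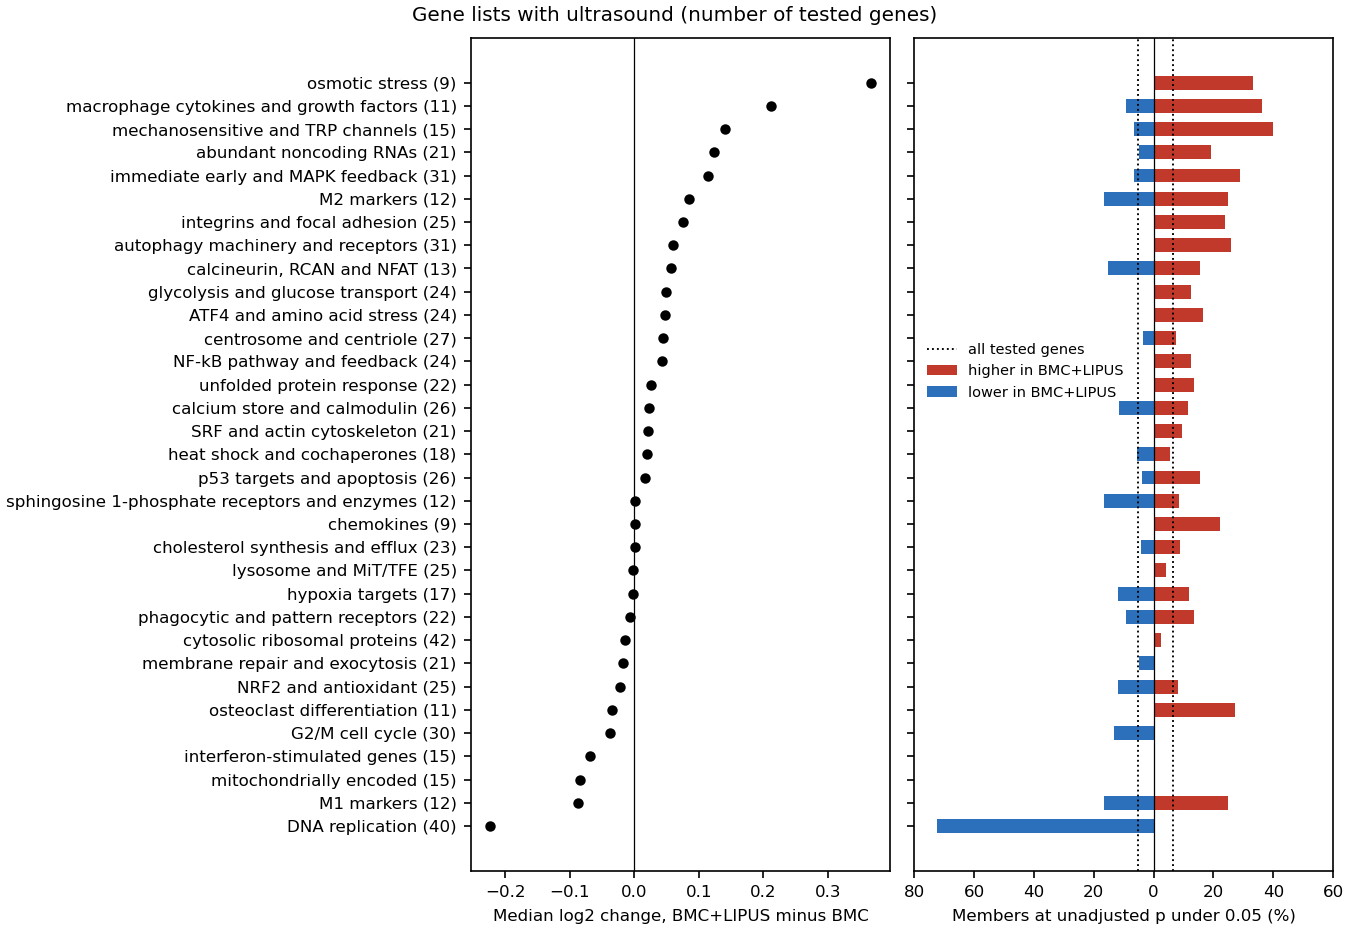
Left, median log2 change between BMC+LIPUS and BMC of each gene list with at least 9 tested genes; right, share of its members at unadjusted p under 0.05, red to the right for higher and blue to the left for lower in BMC+LIPUS, with dotted lines at the shares of all tested genes (6.32% and 5.19%). DNA replication has the most negative median and 72.5% of its members lower. The lists were chosen with earlier results of these data known.

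Osmotic stress genes had the most positive median, 0.37, over 9 tested genes, of which 3 were higher at unadjusted p under 0.05, none lower and none called by edgeR. That rank rests on single libraries: the median was 0.10 without BMC+LIPUS replicate 3 and 0.12 without BMC replicate 1, where the cytokine list had 0.24 and 0.25. DESeq2 called 1 of the 9 higher, edgeR with no filter 6, and Nfat5 was called in 3 of 18 other settings. Nfat5, the transcription factor of the osmotic response, had 36.0, 34.4 and 38.9 FPKM in BMC+LIPUS, 23.9, 30.7 and 30.5 FPKM in BMC, and 23.6, 20.6 and 19.0 FPKM in control (log2 change 0.37, SE 0.10, edgeR adjusted p = 0.165). Mean log2 CPM of the list was 7.86, 7.43 and 8.21 in BMC+LIPUS, 7.19, 7.54 and 7.91 in BMC, and 6.99, 6.87 and 6.96 in control. The BMC+LIPUS and BMC libraries overlap and each group is spread wider than the controls. The number higher was 7 without BMC+LIPUS replicate 2 or BMC replicate 3, 2 without BMC+LIPUS replicate 1, and 1 without BMC+LIPUS replicate 3 or BMC replicate 1. With this mean as a covariate, which was added after the data were seen, edgeR called 190 genes, the 13 among them.

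In several stress and metabolic lists a larger share of members was higher at unadjusted p under 0.05 than the 6.32% of all tested genes, on 3 or 4 genes each. The share was 16.7% for ATF4 and amino acid stress, 15.4% for p53 and apoptosis, 13.6% for the unfolded protein response and 12.5% for glycolysis, and 27.3% for osteoclast genes. These lists are not separate: Sesn2 counts as higher in both the ATF4 and the p53 list. Nfatc1 does so in both the osteoclast and the calcineurin list. Of 22 unfolded protein response genes 3 were higher, led by Hyou1, a chaperone of the endoplasmic reticulum, at 150, 154 and 155 FPKM in BMC+LIPUS and 127, 138 and 134 FPKM in BMC (log2 change 0.21, edgeR adjusted p = 0.154). Of 24 ATF4 and amino acid stress genes 4 were higher, led by Sesn2, a sensor of leucine, at 8.73, 10.4 and 9.51 FPKM in BMC+LIPUS and 7.73, 8.09 and 8.07 FPKM in BMC (edgeR adjusted p = 0.268). Of 24 glycolysis genes 3 were higher, led by Pfkp, a phosphofructokinase, at 19.5, 21.3 and 20.3 FPKM in BMC+LIPUS and 16.5, 17.7 and 16.8 FPKM in BMC (log2 change 0.27, edgeR adjusted p = 0.0894). In these 3 lists none was lower. Levels of genes with near-identical copies are uncertain, and the part of this in the glycolysis and ribosomal protein lists was not tested. Gapdh, among the 3 higher glycolysis genes, averaged only 8.62 FPKM in BMC+LIPUS and 7.19 FPKM in BMC. The counts of members higher and lower were 4 and 1 of 26 in the p53 and apoptosis list, 2 and 2 of 17 hypoxia targets, 2 and 1 of 23 cholesterol genes, 1 and 1 of 18 heat shock genes, and 0 and 1 of 21 membrane repair genes. They were 3 and 2 of 22 phagocytic and pattern receptors, 3 and 0 of 11 osteoclast genes, 0 and 1 of 5 purinergic genes, 1 and 0 of 42 cytosolic ribosomal protein genes and 0 and 0 of 15 mitochondrially encoded genes. None of these was called by edgeR. DESeq2 called 1 unfolded protein response and 1 glycolysis gene, both higher, and Pfkp was called in 5 of 18 other settings. With no filter, edgeR called 1 or 2 genes in the stress, glycolysis, p53, hypoxia, cholesterol, heat shock, osteoclast and receptor lists. With the osmotic covariate it called 5 receptors, 2 glycolysis genes and 1 cholesterol gene, all higher, and 2 p53 genes higher and 1 lower. Robust estimation and the replicate block each called 1 glycolysis gene higher. Without BMC replicate 3, 1 unfolded protein response gene was called higher. Single libraries moved the counts at unadjusted p: without BMC+LIPUS replicate 1, 6 mitochondrially encoded genes were lower and the p53 counts were 1 and 0. Without BMC+LIPUS replicate 2, 2 mitochondrially encoded genes were higher, and without BMC replicate 3 the p53 counts were 3 and 4. Heat shock genes higher were 4 without either of these 2 libraries, receptors lower 5, and osteoclast genes higher 1 without BMC+LIPUS replicate 3 or BMC replicate 2. C5ar1, the anaphylatoxin receptor, led the receptor list at 49.8, 53.8 and 45.7 FPKM in BMC+LIPUS and 42.0, 41.7 and 35.0 FPKM in BMC (log2 change 0.34, edgeR adjusted p = 0.228).

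The change with ultrasound moved with exon length, as given by the ratio of counts to FPKM. Across the 12030 tested genes, which are not independent replicates, Spearman's rho between length and log2 change was 0.145. Of 1308 genes with over 9 kb of exons, 16.97% were higher and 3.44% lower at unadjusted p under 0.05, and their median log2 change was 0.06. Of 1405 genes with 1 to 2 kb, 2.63% were higher and 5.62% lower, and the median was -0.04. The libraries of a group differed in this too: the median deviation of the genes over 9 kb from the mean of all libraries was 0.0021, 0.0467 and 0.0737 log2 CPM in BMC+LIPUS, -0.0700, 0.0195 and -0.0172 in BMC, and 0.0089, 0.0195 and -0.0792 in control. Of the called genes, 9 of 13 were longer than the median of all genes (3.82 kb), with a median of 5.57 kb. With the length trend of each library removed in the fit, an alternative added after the data were seen, 32 genes were called, all 13 among them, and 31 of the 40 DNA replication genes were lower at unadjusted p under 0.05. The part of length in the lists of integrins, channels and autophagy was not tested beyond that fit, in which 5 of 25, 4 of 15 and 6 of 31 genes were higher. The osmotic stress list had the longest genes of the lists, with a median of 8.46 kb, and in that fit 1 of its 9 genes was higher and its median log2 change was 0.28.

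**Figure D5:**
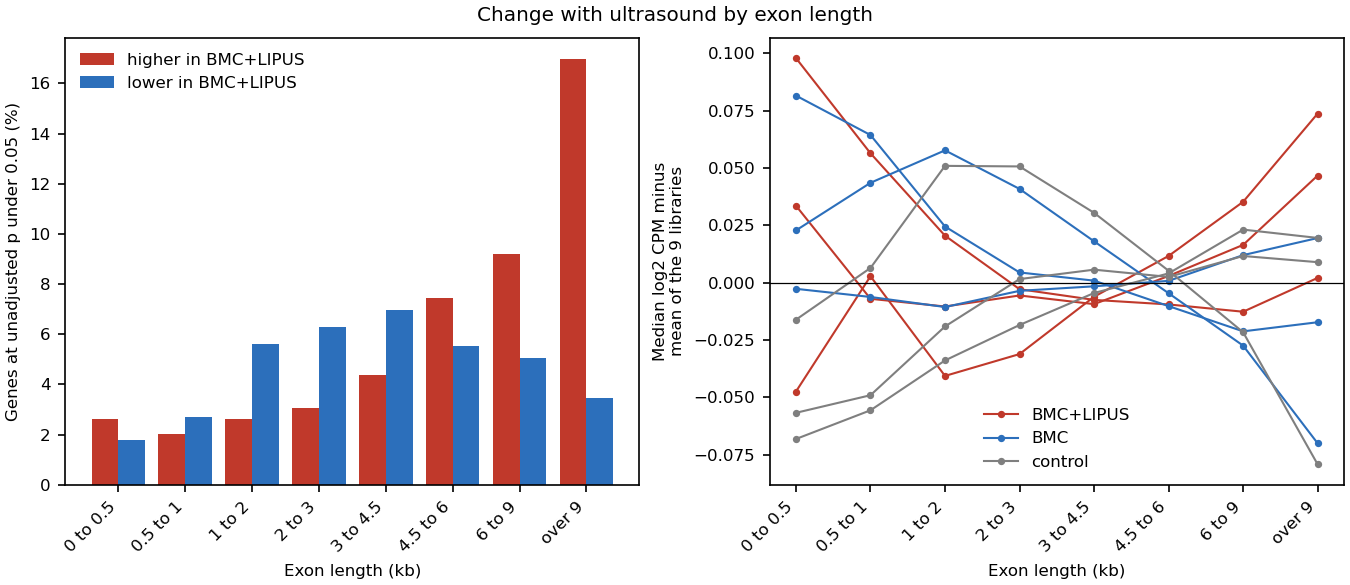
Left, share of genes at unadjusted p under 0.05 higher or lower in BMC+LIPUS than in BMC, by exon length in kb; right, median log2 CPM of each length class in each library minus the mean of the 9 libraries. The share higher is 16.97% over 9 kb, and the libraries of each group are spread.

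The largest fitted changes belonged to genes of few reads and none was called. By the rule for large changes without overlap, the 6 rises were H4c12, SNORA2C, Mir222, Mir1a-1, Snora78 and Snord35a, and the 6 falls Mir5119, Mir7059, Calhm6, Mir339, Tspan17 and Ankrd37. H4c12, a replication-dependent histone gene, had 19, 19 and 12 counts in BMC+LIPUS, 4, 4 and 3 in BMC and 26, 9 and 15 in control (edgeR adjusted p = 0.15), so the BMC libraries were the ones that stood apart. Calhm6, a calcium homeostasis modulator channel of immune cells, had 6, 3 and 1 counts in BMC+LIPUS, 17, 17 and 9 in BMC and 56, 77 and 46 in control (log2 change -2.06, edgeR adjusted p = 0.123). Tspan17, a tetraspanin, had 23, 21 and 17 counts in BMC+LIPUS and 41, 34 and 36 in BMC (log2 change -0.86, edgeR adjusted p = 0.2). Ankrd37, a hypoxia target, averaged 2.98 ± 0.32 FPKM in BMC+LIPUS and 5.38 ± 1.1 FPKM in BMC (SD, n = 3 each, log2 change -0.84, edgeR adjusted p = 0.295). The other 8 genes, all named as small RNAs, had at most 12 counts in any of the 6 libraries. Polyadenylated RNA was sequenced, so reads at these 8 genes and at H4c12 may not measure their mature RNAs. The source of these reads was not tested.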

How the data were processed

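Polyadenylated RNA of RAW264.7 cells was sequenced as read pairs from a stranded kit, per the labels' protocols. Per the submitters' processing notes, the tools named are DESeq2, HTSeq 0.6.1, HISAT2 2.0.1 and cutadapt 1.9.1, with build GRCm39. The strand setting of the counting is not given in the sources used here, so a gene and an overlapping or antisense partner cannot be told apart, and near-identical copies are uncertain. The deposited table holds whole read counts, not normalized, and FPKM made by the authors and rounded to 2 decimals, per the file headers and values. It has 56691 lines. The 2639 lines without a name (0.0889% to 0.0976% of counts) were left out. Of 77 names on more than 1 line, each line was kept. The table's 6 columns of 3 other libraries were not used here.

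Where the 9 libraries averaged 0.5 FPKM or more, a gene was tested with edgeR 4.0.16: TMM factors, a quasi-likelihood fit of 3 group means without block, the contrast BMC+LIPUS minus BMC, and Benjamini-Hochberg adjustment. Every adjusted p given is from this fit unless a setting is named, and SEs come from its F statistic. The fit was tested on simulated data. limma 3.58.1 and DESeq2 1.42.0 served as alternatives. Levels are mean FPKM ± SD. Libraries overlap or not by TMM-scaled CPM.

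The members and the 35 gene lists (with 7 of markers) were chosen with earlier results of these data known. Of 860 list symbols, 858 were found, 1 through a synonym. Lists are described by counts and medians, with no set test, and some genes are in more than 1 list. The rule for named genes takes each called gene, the polarization panel, the 6 largest rises and falls of at least 1 FPKM without overlap, and up to 2 members of a list with the smallest p. Further list members were named after their values were seen. One called gene is not reported here.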

Additional observations from a re-analysis of the deposited data

How the results depend on the processing

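The count of 13 genes called (11 higher, 2 lower) was 15 with library totals and 13 with median-ratio size factors. It was 73 (41 higher, 32 lower) with DESeq2, 0 (0 and 0) with limma on log2(FPKM + 1), 1 (0 higher, 1 lower) with a pseudocount of 0.1, 234 (156 higher, 78 lower) with no filter, 8 (7 higher, 1 lower) with a minimum of 5 FPKM, 2 (2 higher, 0 lower) with the 6 libraries compared alone and 40 (26 higher, 14 lower) with robust estimation. Leaving out 1 library gave 0 to 51 calls, 0 to 26 higher and 0 to 25 lower. Added after the data were seen, the osmotic covariate gave 190 (137 higher, 53 lower), the length offset 32 (18 higher, 14 lower) and an adjusted p under 0.10 gave 54 (30 higher, 24 lower). The cause of these moves was not tested. All 13 genes kept their direction wherever tested, and 17 of 35 list medians kept their sign in every setting. Replicate numbers, which are those of the sample titles, were not taken as pairing. The deviations of same-numbered BMC+LIPUS and BMC libraries from their group means had r = -0.0348, 0.0297 and 0.208. Pairs with other numbers had r from -0.251 to 0.231. The replicate block, which uses these numbers, gave 53 calls (33 higher, 20 lower). For a median gene, the 95% interval reached 0.204 on the log2 scale to either side. That interval holds the spread between libraries as well as counting error, and it is not adjusted for the number of genes. The smallest called change was 0.35, for Fyn.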
